A study of Homo sapiens with 8 samples.

Results

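The replication and S-phase set consisted of 51 genes whose products license replication origins, build the replisome, supply deoxynucleotides or assemble chromatin behind the fork, together with a few regulators of S phase. The members were listed by function out of 34792 genes to which transcripts could be summed, and 51 of 51 passed the filter on low counts that left 15993 genes to test. Their RNA was measured in A673/TR/shFEZF1 cells, an engineered form of A673, a cell line established from Ewing sarcoma, that carries a doxycycline-inducible shRNA against FEZF1. FEZF1 is a zinc finger transcription factor of the developing forebrain. The 8 libraries came from 4 origins, namely a polyclonal population and clones 3, 5 and 6, each cultured without doxycycline (control, n = 4) and with doxycycline at 1 µg/mL for 72 h (n = 4). All cultures carried the same shRNA construct and were grown with blasticidin, puromycin and zeocin, each clone is a line grown from a single cell, and no culture with a non-targeting shRNA was analysed here, so that doxycycline itself and FEZF1 knock-down cannot be told apart. Each origin gave 1 culture per condition. The p-values rest on the spread between these 4 pairs, which the test partly shares across genes. The SE and interval of a gene are therefore not the spread of its own pairs alone.

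Salmon assigned between 26719886 and 42422421 reads per library, with a median of 33248931.5 in the control group and 34278974.5 in the doxycycline group. Even the member with the fewest reads, POLE2, had 473 reads or more in each library. Levels are given below as CPM (reads of a gene scaled to the library size and corrected by TMM) when 1 gene is followed across cultures, and as TPM, which also takes transcript length into account, when genes are set side by side. Values for the 4 origins are always listed as polyclonal, clone 3, clone 5 and clone 6. A gene was called changed when its adjusted p (edgeR quasi-likelihood test with origin as a block, Benjamini-Hochberg over all genes tested) was under 0.05.

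The knock-down was present in every pair. FEZF1 CPM were 96.4, 70.5, 107.1 and 74.4 in the controls and 60.6, 43, 60.8 and 36.4 with doxycycline. The highest doxycycline culture thus lay below the lowest control, and FEZF1 fell by 0.81 on the log2 scale (SE 0.0726, adjusted p = 0.00594), a drop of 42.8%. The cells also carried the markers of their label. CD99, a surface protein typical of Ewing sarcoma, was the most abundant marker of a list of 7, at 1387 to 3671 TPM across the libraries, and the list summed to 1791 to 4189 TPM. FLI1, on the same list, was listed at or near 0, because only 0.0404% of its reads could be matched to the symbol. Markers of other cell types were near 0, with sums of at most 3.55 TPM for epithelial, 0.213 TPM for blood and 0.291 TPM for endothelial genes.

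Before a cell copies its DNA, the origin recognition complex (ORC), CDC6 and CDT1 load the ring of MCM proteins around DNA in G1. At the entry to S phase, kinases together with MCM10, CDC45 and the GINS complex turn that ring into the active helicase. DNA polymerase alpha with primase then lays primers, polymerases delta and epsilon extend them on the sliding clamp PCNA, and FEN1 and LIG1 finish the lagging strand. Many of these genes are transcribed at the G1/S transition by E2F factors, which are held back by the retinoblastoma family in resting cells. High expression of the set is typical of dividing tumor cells in culture.

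The promoters of members called lower are shown here because E2F sites are the best known element that these genes share. Windows of 300 bases, from 250 bases before to 50 after the start, were taken from RefSeq (GRCh38.p14), which gave a window for 45 of the 51 members. The windows below belong to the 4 members with the smallest p among those with a window, and lie at chr2:135876394-135876693 (minus strand) for MCM6, chr6:52284693-52284992 (minus) for MCM3, chr20:5126573-5126872 (minus) for PCNA and chrX:24693668-24693967 (plus) for POLA1. Each is written 5′ to 3′ in the direction of its gene, with capitals for the letters searched. These were E2F letters (TTTCCCGC, TTTGGCGC, TTTGCCGC or TTTCGCGC), the CCAAT letters bound by NF-Y, and the CHR letters of cell cycle promoters (TTTGAA or TTCGAA), on either strand, and overlapping matches run together.
MCM6 promoter: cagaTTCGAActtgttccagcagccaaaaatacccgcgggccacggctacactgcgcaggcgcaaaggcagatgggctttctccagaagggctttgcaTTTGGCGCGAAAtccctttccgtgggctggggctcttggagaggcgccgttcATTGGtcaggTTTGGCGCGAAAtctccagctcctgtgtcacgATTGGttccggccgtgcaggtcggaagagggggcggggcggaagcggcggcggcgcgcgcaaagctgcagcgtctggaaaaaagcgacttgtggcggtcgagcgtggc
MCM3 promoter: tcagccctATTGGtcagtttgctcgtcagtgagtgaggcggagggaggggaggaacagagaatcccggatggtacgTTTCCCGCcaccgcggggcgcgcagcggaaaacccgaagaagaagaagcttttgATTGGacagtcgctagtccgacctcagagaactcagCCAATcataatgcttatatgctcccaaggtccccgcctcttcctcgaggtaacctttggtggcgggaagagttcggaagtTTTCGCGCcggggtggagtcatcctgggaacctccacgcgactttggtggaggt
PCNA promoter: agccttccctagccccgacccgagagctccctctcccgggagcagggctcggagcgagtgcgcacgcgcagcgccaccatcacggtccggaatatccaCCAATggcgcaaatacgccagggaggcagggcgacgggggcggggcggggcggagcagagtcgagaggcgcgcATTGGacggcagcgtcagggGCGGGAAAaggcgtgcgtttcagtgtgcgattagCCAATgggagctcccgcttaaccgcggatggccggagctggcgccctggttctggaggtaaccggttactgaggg
POLA1 promoter: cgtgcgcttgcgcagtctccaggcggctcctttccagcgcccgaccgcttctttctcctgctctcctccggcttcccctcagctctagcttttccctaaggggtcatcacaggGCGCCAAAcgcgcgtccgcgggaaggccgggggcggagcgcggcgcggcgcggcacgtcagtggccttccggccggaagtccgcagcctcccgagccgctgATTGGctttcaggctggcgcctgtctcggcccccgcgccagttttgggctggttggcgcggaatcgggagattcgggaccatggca

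In the MCM6 window the run TTTGGCGCGAAA appeared at 152 and again at 90 bases before the start, and each run holds an E2F match on both strands. Matches to the E2F letters were found in 21 of the 45 members with a window (46.7%), against 793 of 12379 tested genes with a window (6.41%). Of the members called lower, 7 of 8 with a window held such a match (87.5%), the exception being CDC45, and of the members not called 14 of 37 did (37.8%). A gene counted as matched if any of its windows held the letters. The 8 called members had 13 windows and the 37 others 46, so the called genes had more windows per gene. The shares were not tested against each other. Of 24 mitotic genes with a window, 3 held the E2F letters (12.5%). The CHR letters were found in 3 of 45 members (6.67%), 19 of 24 mitotic genes (79.2%) and 16% of all tested genes. The CCAAT letters were present in 26 of 45 members (57.8%), 18 of 24 mitotic genes (75%) and 42.7% of all tested genes. These matches describe the sequence only and binding was not measured.

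With doxycycline, 10 of the 51 members fell and 0 rose (edgeR, adjusted p under 0.05), in a comparison in which 3.91% of all genes tested were called lower and 3.73% higher. The share of members called lower was 19.6%. The 10 genes were MCM3, MCM4, MCM5 and MCM6 of the helicase ring, CDC45, the polymerase alpha subunits POLA1 and POLA2, PCNA, LIG1 and UHRF1, and their drops lay between 14.3% (MCM4) and 23.5% (MCM6). At an unadjusted p under 0.05, 24 members were lower and 3 higher, and of all genes tested 12.2% were lower and 12.6% higher. The median log2 fold change of the members was -0.12 (quartiles -0.24 and -0.03, range -0.39 to 0.22), whereas that of all genes tested was 0.00, and 41 members had a value below 0. In bulk RNA, fewer cells in S phase and less RNA per cell cannot be told apart.

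The direction was shared by the pairs more often than among genes at large. 25 of 51 members (49%) were lower in 4 of 4 pairs, against 15.9% of all genes tested, whereas 6 members (11.8%) were higher in 4 of 4 pairs, against 17.3%. For 6 members (11.8%, against 2.29% of all genes), namely MCM2, MCM3, MCM4, CDC45, POLA2 and LIG1, every doxycycline culture lay below every control. The median log2 ratio of the members was -0.08 in the polyclonal population, with 34 of 51 lower, -0.11 in clone 3 with 40 lower, -0.23 in clone 5 with 42 lower and -0.11 in clone 6 with 32 lower. Clone 5 thus had the lowest median of the 4 pairs, and whether the response differed between origins was not tested.

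Fewer members were called by edgeR without the pairing or with an origin left out. In the same edgeR fit with no replicate block, 0 members were called and 1 gene in all, with 9 members and 1155 genes at an unadjusted p under 0.05. DESeq2 called 20 members with the block and 2 without it. When both cultures of clone 5 or of clone 6 were left out, 0 members were called by edgeR. At an unadjusted p under 0.05 there were 22 members and 2744 genes without clone 5, and 23 members and 3162 genes without clone 6. Without clone 3, 2 members were called, and without the polyclonal population 5. For the 10 called genes the fold change was below 0 in 110 of 110 combinations of gene and alternative. These genes were chosen for a fall and each was lower in every pair, so the sign could hardly turn and its constancy shows no stability.

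**Figure D1:**
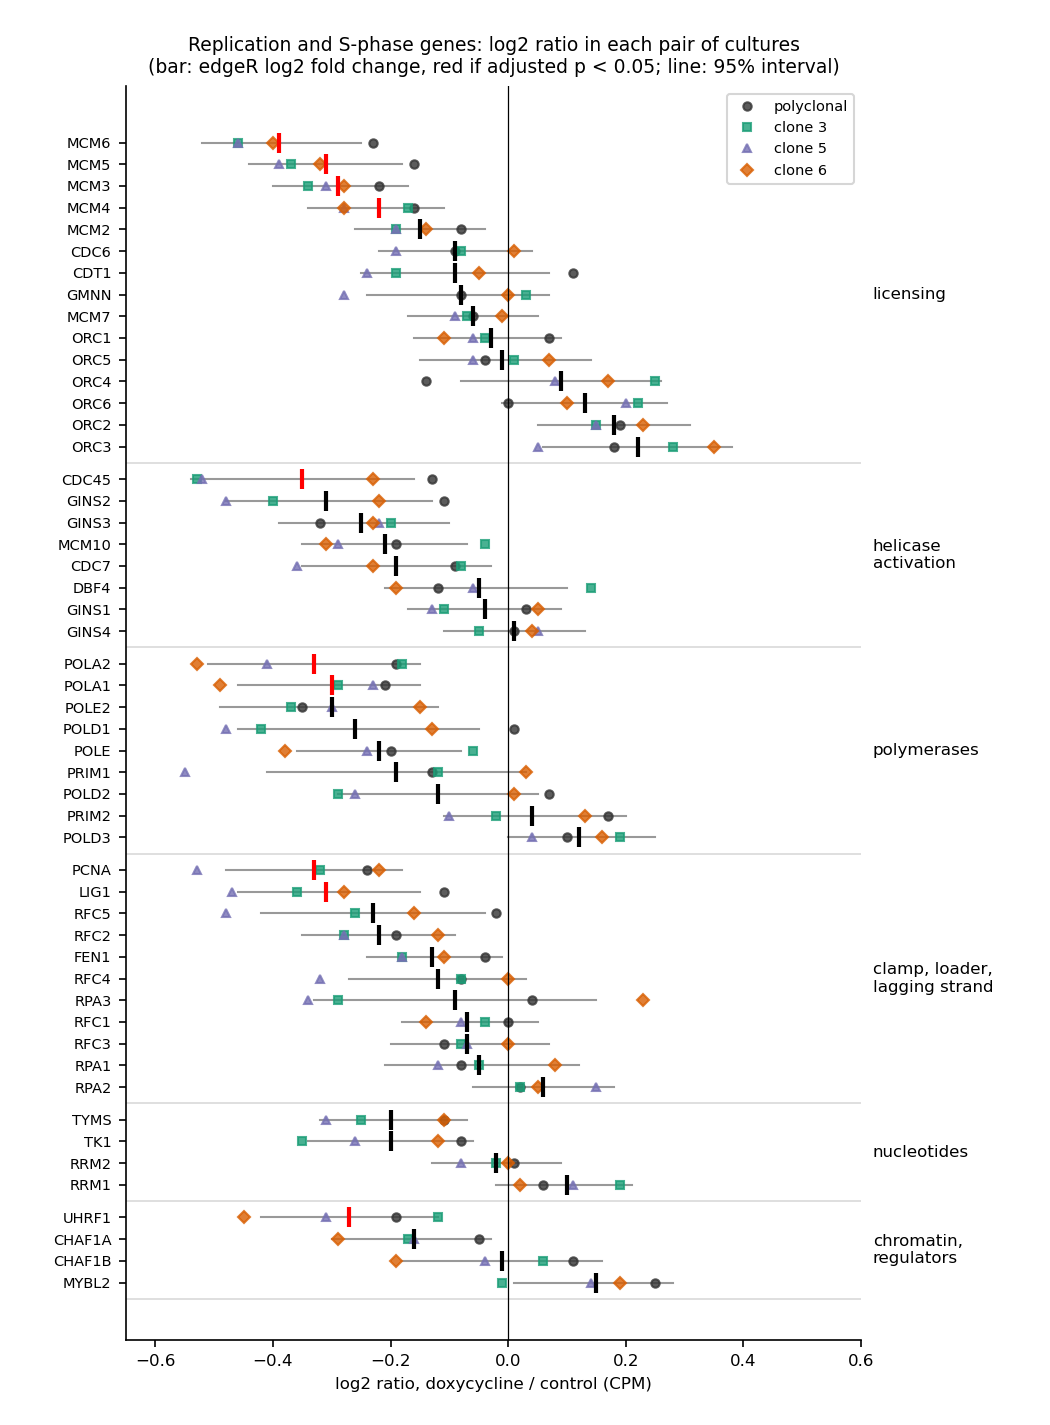
Log2 ratio of doxycycline to control CPM for each of the 51 members in the 4 pairs (symbols), with the edgeR log2 fold change (vertical bar, red for the 10 genes with adjusted p under 0.05) and its 95% interval (grey line), ordered by role. Of the 51 bars, 41 lie left of 0 and 10 right of it, those of ORC2, ORC3, ORC4, ORC6, GINS4, PRIM2, POLD3, RPA2, RRM1 and MYBL2.

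Among the 15 genes of origin recognition and licensing, 4 fell, all of them subunits of the MCM ring, and the median log2 fold change of the group was -0.08. MCM6 (chromosome 2, 135839626 to 135876443) had the lowest fold change of the members in the main comparison, although CDC45 was lower without clone 6 (-0.393 against -0.384) and POLA2 without clone 3 (-0.377 against -0.363). MCM6 CPM were 292.2, 263.4, 273.7 and 361.7 in the controls and 249.8, 191.2, 198.5 and 274.6 with doxycycline, a log2 fold change of -0.39 (SE 0.0575, adjusted p = 0.0129). The culture of clone 6 was the highest in each group, so that the groups overlapped although each pair moved down. MCM3 (chromosome 6, 52264015 to 52284742) had CPM of 456.9, 451.2, 459.5 and 488.9 in the controls and 393, 357.4, 369.5 and 403.6 with doxycycline, without overlap (log2 fold change -0.29, SE 0.0484, adjusted p = 0.0187). For MCM4, another subunit of the ring, CPM were 415.3, 462, 455.8 and 456.5 in the controls, of which the polyclonal culture stood apart as the lowest. With doxycycline MCM4 CPM were 370.7, 412, 376.5 and 374.6, where clone 3 stood apart as the highest, and the groups still did not overlap (log2 fold change -0.22, SE 0.0501, adjusted p = 0.0407).

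MCM5 (chromosome 22, 35400140 to 35455031) differed between origins by more than it differed between conditions. MCM5 CPM were 261.4, 152.3, 336.2 and 142.4 in the controls and 234.5, 118.1, 256.6 and 113.7 with doxycycline, so that the groups overlapped widely. Each pair was nevertheless lower, with a log2 fold change of -0.31 (SE 0.057, adjusted p = 0.0229). The remaining subunits of the ring were not called. MCM2 CPM were 388.8 to 424.2 in the controls and 351.9 to 379.6 with doxycycline, without overlap, and its log2 fold change was -0.15 (SE 0.0482, adjusted p = 0.103). MCM7, the most abundant licensing gene per length at 349.9 ± 16.3 TPM in the controls (SD, n = 4), had CPM of 473.5, 511.6, 524.9 and 480.3 in the controls and 453, 486.4, 493.8 and 477.8 with doxycycline. Its pairs were all lower by a little, and its log2 fold change was -0.06 (95% interval -0.17 to 0.05, adjusted p = 0.501).

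The ORC subunits, which mark origins on DNA and load the ring, were not called. ORC1, ORC4 and ORC5 had log2 fold changes of -0.03, 0.09 and -0.01, and ORC2, ORC3 and ORC6 were higher in 4 of 4 pairs. ORC2 CPM were 54.6, 54.1, 53.7 and 66.9 in the controls and 62.4, 60.1, 59.7 and 78.4 with doxycycline (log2 fold change 0.18, SE 0.0548, adjusted p = 0.0887). Clone 6 stood apart as the highest in each ORC2 group. ORC3 CPM were 51.8, 58.7, 49.1 and 75.9 in the controls and 58.7, 71.4, 50.9 and 97.2 with doxycycline, with a log2 fold change of 0.22 (SE 0.067, adjusted p = 0.0904). For ORC3 only 75.8% of the reads could be matched to the symbol. ORC6 CPM were 71.9, 73.6, 70.4 and 75.9 in the controls and 72, 85.9, 80.8 and 81.3 with doxycycline (log2 fold change 0.13, adjusted p = 0.233), and the polyclonal pair was almost level. Per length, the ORC genes ranged from 27.2 (ORC4) to 87 TPM (ORC6) on average in the controls. The loading factors CDC6 and CDT1 and the CDT1 inhibitor GMNN had log2 fold changes of -0.09, -0.09 and -0.08, with adjusted p of 0.378, 0.468 and 0.506.

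Of the 8 genes of helicase activation, CDC45 fell, and the group median was -0.20. CDC45 (chromosome 22, 19479466 to 19520612), which travels with the MCM ring and GINS as part of the moving helicase, had CPM of 76.2, 78.5, 84.7 and 78.4 in the controls and 69.8, 54.3, 58.9 and 66.9 with doxycycline. The groups did not overlap, the drops were largest in clones 3 and 5, and the log2 fold change was -0.35 (SE 0.083, adjusted p = 0.0451). The GINS subunits, none of them called, gave different values. GINS2 had a log2 fold change of -0.31 (SE 0.0756, adjusted p = 0.0506) and GINS3 of -0.25 (SE 0.0619, adjusted p = 0.0521), both lower in 4 of 4 pairs and just outside the threshold, whereas GINS1 and GINS4 stood at -0.04 (95% interval -0.17 to 0.09) and 0.01 (-0.11 to 0.13). DESeq2 called GINS2 and GINS3 with the block (adjusted p = 0.0065 and 0.0148) but not without it (adjusted p = 0.976 and 0.7). MCM10, which helps to activate the helicase, had a log2 fold change of -0.21 (adjusted p = 0.0805). The kinase CDC7 and its activator DBF4 were at -0.19 (adjusted p = 0.144) and -0.05 (adjusted p = 0.679).

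The 9 polymerase genes had the lowest group median, -0.22, and both subunits called belonged to polymerase alpha. POLA1 (chromosome X, 24693918 to 24996986), its catalytic subunit, had CPM of 83.7, 72.3, 87 and 83.8 in the controls and 72.1, 59.3, 74.3 and 59.6 with doxycycline. The groups overlapped because the control of clone 3 was low, and the log2 fold change was -0.30 (SE 0.0654, adjusted p = 0.0362). POLA2 (chromosome 11, 65261962 to 65305985), its accessory subunit, had CPM of 64.6, 60, 66.2 and 68.2 in the controls and 56.6, 52.8, 49.6 and 47.2 with doxycycline, without overlap (log2 fold change -0.33, SE 0.0761, adjusted p = 0.0433). Only 50.1% of the POLA2 reads were matched to the symbol, and its value covers the matched transcripts alone. The primase subunits that work with polymerase alpha were not called, with -0.19 for PRIM1 (adjusted p = 0.256) and 0.04 for PRIM2 (adjusted p = 0.741).

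Polymerase epsilon, which extends the leading strand, lay close to the threshold, with -0.22 for its catalytic subunit POLE (adjusted p = 0.071) and -0.30 for POLE2 (adjusted p = 0.06). In polymerase delta, which extends the lagging strand, no subunit was called. POLD2, the most abundant polymerase gene per length at 265.8 ± 14.7 TPM in the controls, had CPM of 236.1, 231.1, 244.3 and 269.5 in the controls and 247.8, 188.9, 203.8 and 271.9 with doxycycline. It was lower in clones 3 and 5 and slightly higher in the polyclonal population and clone 6 (log2 fold change -0.12, 95% interval -0.29 to 0.05, adjusted p = 0.381). POLD3 CPM were 79.6, 79.8, 86.4 and 87.8 in the controls and 85.3, 90.9, 88.8 and 98 with doxycycline, higher in each pair (log2 fold change 0.12, adjusted p = 0.217). POLD1, the catalytic subunit, had a log2 fold change of -0.26 (adjusted p = 0.128).

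**Figure D2:**
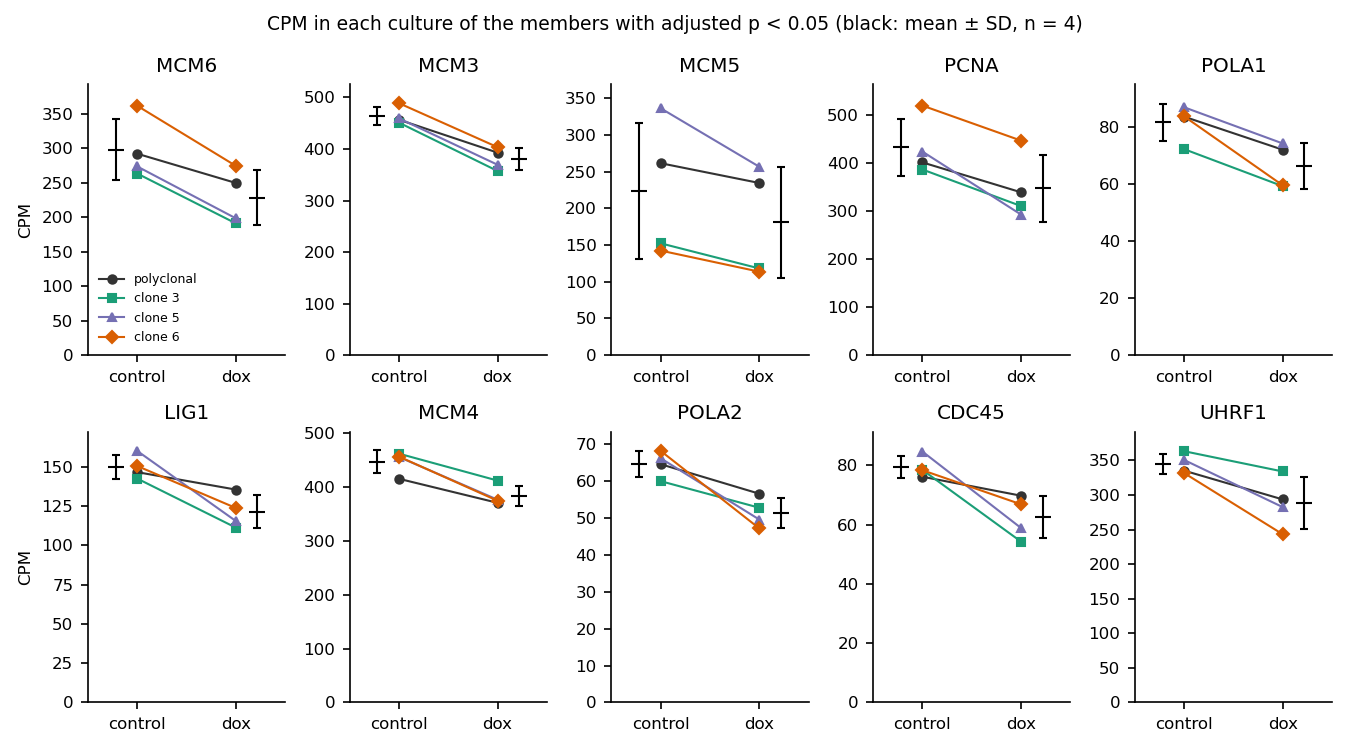
CPM in each culture (symbols, with a line joining the control and doxycycline cultures of an origin) for the 10 members with adjusted p under 0.05, with the mean ± SD of each group (n = 4) in black and axes from 0. Every line falls, and the lines of MCM5 spread further apart (142.4 to 336.2 CPM in the controls) than any of them falls.

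At the sliding clamp and on the lagging strand, PCNA and LIG1 fell among 11 genes with a group median of -0.12. PCNA (chromosome 20, 5114953 to 5126622), the clamp that holds polymerases on DNA, was the most abundant member per length at 629.4 ± 72.1 TPM in the controls. PCNA CPM were 401.2, 386.4, 423.7 and 519.4 in the controls and 339, 310.4, 292.7 and 446.6 with doxycycline, with clone 6 the highest in each group and the groups overlapping (log2 fold change -0.33, SE 0.0639, adjusted p = 0.0263). LIG1 (chromosome 19, 48115445 to 48170344), the ligase that joins Okazaki fragments, had CPM of 146.6, 142.5, 160.1 and 150.5 in the controls and 135.5, 111.3, 115.5 and 123.8 with doxycycline. The LIG1 groups did not overlap, and the log2 fold change was -0.31 (SE 0.0666, adjusted p = 0.0375). FEN1, the flap nuclease of the same step, had a log2 fold change of -0.13 (adjusted p = 0.178).

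The clamp loader genes RFC1 to RFC5 had log2 fold changes between -0.23 (RFC5) and -0.07 (RFC1 and RFC3), and none was called. RFC2 came nearest, with -0.22 (adjusted p = 0.0543), but only 66.1% of its reads were matched. The subunits of RPA, which coats single-stranded DNA, were not called either. RPA2 CPM were 209.8, 224, 206.9 and 266.2 in the controls and 212.9, 226.7, 229.7 and 275.8 with doxycycline, higher in each pair by a small margin (log2 fold change 0.06, 95% interval -0.06 to 0.18, adjusted p = 0.516). RPA3 was lower in clones 3 and 5 and higher in the polyclonal population and clone 6, at -0.09 in the fit (95% interval -0.33 to 0.15). For RPA1 the matched transcripts held only 10.2% of the reads, and its -0.05 says little about the gene.

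None of the 4 genes of nucleotide supply was called. TYMS, which makes thymidylate and was the most abundant of them per length at 386.1 ± 23 TPM in the controls, had CPM of 307.7, 338.1, 342.1 and 388.6 in the controls and 284.9, 284.3, 275.7 and 359.6 with doxycycline. Each pair was lower, clone 6 stood apart as the highest with doxycycline, and the log2 fold change was -0.20 (SE 0.0554, adjusted p = 0.0739). TK1, the thymidine kinase of the salvage route, was at -0.20 (adjusted p = 0.0924). The subunits of ribonucleotide reductase, which converts ribonucleotides to deoxyribonucleotides, lay near or above 0. RRM1 CPM were 201.2, 200.1, 202 and 220 in the controls, clone 6 standing apart as the highest, and 210.5, 227.9, 217.7 and 223.1 with doxycycline (log2 fold change 0.10, adjusted p = 0.3). RRM2, at 318.6 ± 12.7 TPM in the controls, had a log2 fold change of -0.02 (95% interval -0.13 to 0.09).

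Of the 4 genes of chromatin assembly and S-phase regulation, UHRF1 fell. UHRF1 (chromosome 19, 4903080 to 4962154), which binds hemimethylated DNA behind the fork and brings in DNMT1, had CPM of 335.1, 363.2, 350.5 and 331.6 in the controls and 293.5, 333.9, 282.4 and 243.1 with doxycycline. The fall was largest in clone 6, clone 3 with doxycycline overlapped the controls, and the log2 fold change was -0.27 (SE 0.0639, adjusted p = 0.0466). CHAF1A, the large subunit of the histone chaperone that follows PCNA, was at -0.16 (adjusted p = 0.122), and CHAF1B at -0.01 with only 30% of its reads matched. MYBL2, a transcription factor that acts from S phase onwards, was the most abundant of this group per length at 325.8 ± 37.6 TPM in the controls. MYBL2 CPM were 434.1, 565.3, 554 and 462.1 in the controls and 517.8, 562.7, 610.9 and 528.8 with doxycycline, higher in 3 pairs and level in clone 3 (log2 fold change 0.15, SE 0.0573, unadjusted p = 0.0356, adjusted p = 0.168).

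The level of many members depended on the origin. In the same fit 21 of 51 members (41.2%) differed between origins at an adjusted p under 0.05, close to the 39.4% of all genes tested. MCM5 had the smallest p among the members (adjusted p = 0.000195), with the order clone 5, polyclonal, clone 3 and clone 6 in the controls and the same order with doxycycline. Clones 3 and 6 were the neighbours that lay closest, at 152.3 and 142.4 CPM in the controls, less apart than either moved with doxycycline. GINS2 came next (adjusted p = 0.000597), with CPM of 56.2, 45.8, 118.7 and 54.2 in the controls and 52.1, 34.5, 85.1 and 46.4 with doxycycline, so that clone 5 alone was high and the polyclonal population and clone 6 were close to each other. RPA3 (adjusted p = 0.00532) and ORC3 (adjusted p = 0.00328) were highest in clone 6, as were MCM6 (adjusted p = 0.00942) and PCNA (adjusted p = 0.0136).

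**Figure D3:**
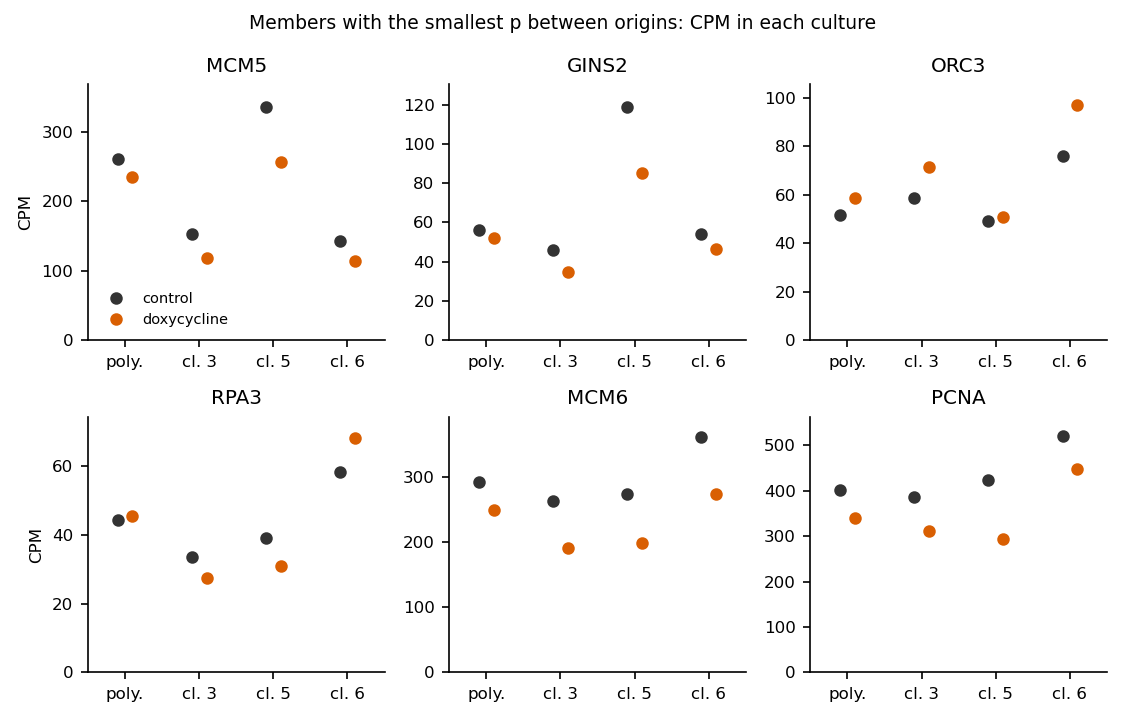
CPM of the 6 members with the smallest p between origins, in control (dark) and doxycycline (orange) cultures of the polyclonal population and clones 3, 5 and 6, 1 culture per point and axes from 0. MCM5 and GINS2 were highest in clone 5, and ORC3, RPA3, MCM6 and PCNA in clone 6.

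Genes around the replication set were examined as 6 further lists. In 26 other genes of the fork and of initiation, 1 fell, TIMELESS of the fork protection complex (log2 fold change -0.28, SE 0.0646, adjusted p = 0.0422), and the median was -0.07. The share called, 3.85%, was near the 3.91% of all genes. WDHD1, ESCO2 and CHTF8, the next by p, had log2 fold changes of -0.29, -0.20 and -0.37 with adjusted p of 0.0831, 0.0853 and 0.114, and 57.7% of the WDHD1 reads were matched. Among 13 other genes of nucleotide synthesis 2 fell and the median was 0.00. They were DUT, which removes dUTP (-0.45, adjusted p = 0.0252), and MTHFD1 of the folate cycle (-0.25, adjusted p = 0.0344). DUT CPM were 108, 108.7, 114.5 and 140.9 in the controls and 92.2, 72.1, 70.7 and 114.9 with doxycycline, lower in each pair and with overlap through clone 6. SAMHD1, which degrades deoxynucleotides, was at -0.23 (adjusted p = 0.123), and GMPS of purine synthesis at 0.09 (adjusted p = 0.297). Among 13 histone chaperones and genes of maintenance methylation, DNMT1, the maintenance methyltransferase, fell (-0.28, SE 0.0538, adjusted p = 0.0255), whereas ASF1B, RBBP7 and TONSL were at -0.27, 0.12 and -0.13 without being called.

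The 27 G1/S and E2F regulators held 7 genes that fell (25.9%) and 0 that rose, where 3.91% of all genes tested fell and 3.73% rose. Their median was -0.06. At an unadjusted p under 0.05, 9 were lower and 4 higher, where 12.2% of all genes tested were lower and 12.6% higher. The count on the higher side was near that share. Of the genes called, E2F8, an E2F factor that represses, had the largest drop (-0.72, SE 0.105, adjusted p = 0.0124). The retinoblastoma relative RBL1 fell by 0.60 on the log2 scale (adjusted p = 0.0161), and the activating factors E2F1 and E2F2 had log2 fold changes of -0.31 (adjusted p = 0.036) and -0.32 (adjusted p = 0.0255). E2F1 CPM were 144.5, 143.7, 156.6 and 137 in the controls and 133, 106.2, 117.5 and 114.1 with doxycycline, without overlap. The other three were FBXO5, an inhibitor of the anaphase promoting complex (-0.29, adjusted p = 0.0449), and the CDK inhibitors CDKN1A (-0.41, adjusted p = 0.018) and CDKN1B (-0.30, adjusted p = 0.0392), which act against entry into S phase. CDKN1A CPM were 59.4, 91.6, 73.3 and 60.3 in the controls and 48.4, 68.3, 48.1 and 48.1 with doxycycline, clone 3 standing apart. The 4 genes on the higher side were E2F5 (0.36, higher in 4 of 4 pairs, adjusted p = 0.0539), E2F6 (0.22, adjusted p = 0.113), E2F7 (0.17, adjusted p = 0.178) and the E2F partner TFDP2 (0.21, adjusted p = 0.15), named after their values were seen. CDC25A, a phosphatase that activates CDKs, had the lowest value of the list (-1.45, SE 0.658, adjusted p = 0.225), but only 17.4% of its reads were matched. Its log2 ratios were -0.67, -0.15, -1.63 and -4.31, the last from a clone 6 culture at 0 CPM with doxycycline. In the 14 S-phase checkpoint genes, BRCA1 (-0.40, adjusted p = 0.0296, with 78.7% of its reads matched) and FANCD2 (-0.22, adjusted p = 0.0438) fell, and ETAA1 and ATR were at -0.26 and -0.18 without being called.

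The replication genes were not alone in this direction. Of 30 mitotic genes, which peak later in the cycle, 6 fell (20%, against 3.91% of all genes tested). Of the 30, 22 were lower in 4 of 4 pairs (73.3%, against 15.9% of all genes). A fold change below 0 was found in 30 of 30, and their median was -0.16. The mitotic genes called were PRC1 of the spindle midzone (-0.47, SE 0.0558, adjusted p = 0.00729), the separase ESPL1 (-0.30, adjusted p = 0.0242), the kinase PLK1 (-0.26, adjusted p = 0.03), CENPF (-0.41, adjusted p = 0.0349), cyclin B1 (CCNB1, -0.20, adjusted p = 0.0472) and NDC80 of the kinetochore (-0.31, adjusted p = 0.0476). PRC1 CPM were 400.1, 377.3, 353 and 452.6 in the controls and 316.9, 272, 235.8 and 320.1 with doxycycline, without overlap. No test compared the lists with each other.

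**Figure D4:**
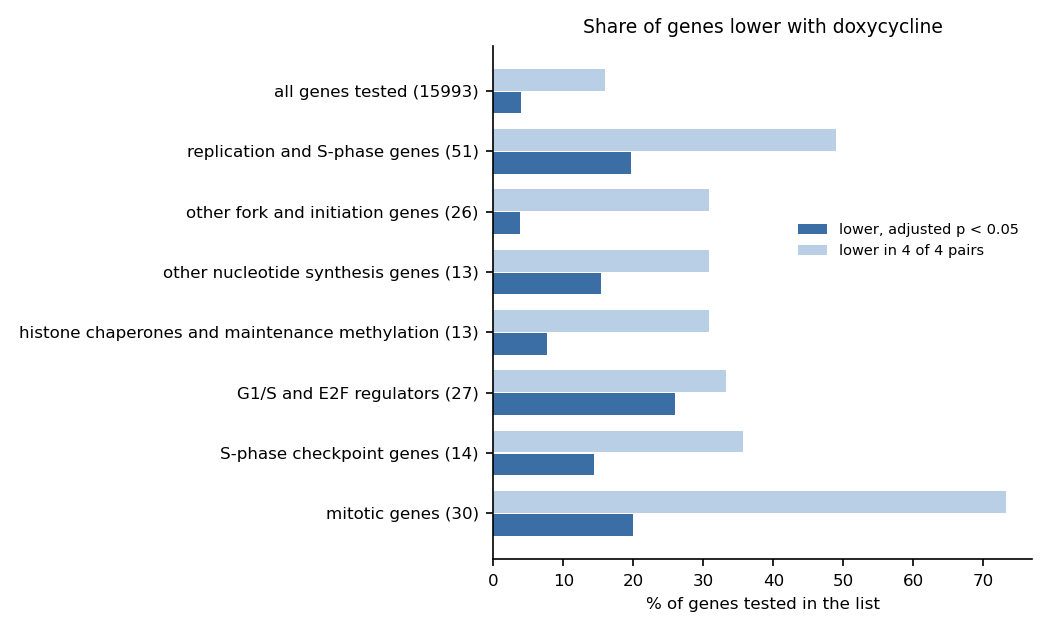
Share (%) of the genes tested in each list (number in brackets) that were called lower with doxycycline (edgeR, adjusted p under 0.05, dark) or were lower in 4 of 4 pairs (light). The replication and S-phase genes stand at 19.6% and 49%, the mitotic genes at 20% and 73.3%, and all genes tested at 3.91% and 15.9%.

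Gene length moved with the ratios in clone 6. When the genes tested were divided into 3 classes of equal size by effective length, the median log2 ratio in clone 6 was 0.11 for short, 0.01 for middle and -0.11 for long genes, whereas the same medians in clone 3 were -0.05, 0.02 and 0.05. Over the mean of the 4 pairs, the members lay below all genes of their class, at -0.16 against 0.02 for the 18 short members, -0.09 against 0.01 for the 25 of middle length and -0.14 against -0.02 for the 8 long ones. With an offset for effective length, edgeR called 12 members, including the same 10. Among the 44 members with at least 80% of their reads matched to a symbol, 9 were called.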

How the data were processed

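RNA of 8 cultures was sequenced from stranded mRNA libraries. Reads were quantified by the authors with Salmon against RefSeq transcripts of GRCh38, and each library was deposited as estimated counts, TPM and lengths for 158867 transcripts. The strand setting is not given in the sources used here. The control of clone 5 was deposited with another row order and number format, and libraries were joined by transcript. The authors also deposited a DESeq2 (2.11.40.6) table, of which only the mean signal of normalised counts was used, to see how completely each symbol was matched. Its fold changes and p-values were left out.

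Transcripts were matched to symbols by RefSeq accession (72.6% of transcripts, 89.89 to 91.12% of reads), and estimated counts were summed per symbol, rounded and tested with edgeR 4.0.16 (R 4.3.3, TMM, filterByExpr, quasi-likelihood F-test) with origin as a block. DESeq2 1.42.0 and fits without the block served as alternatives. The authors name DESeq2, and whether they used a block is not given in the sources used here. The script was checked on simulated counts whose changes were larger on the log2 scale than those of the members called. Changes as small as those of the members were not covered by that check. Intervals are 95%. Log2 ratios of single pairs used a pseudocount of 0.5 CPM. The pairing comes from the origin named in the labels. Across genes, which are not independent replicates, deviations from the group mean correlated at 0.406 to 0.59 between cultures of 1 origin and at -0.395 to 0.179 between origins.

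Members and lists were chosen with earlier results of these data known. Values per culture are given for FEZF1, members called, the most abundant member of each role and members moving against the called direction in 4 of 4 pairs, and up to 4 genes with the smallest p are named per further list, to which the other genes called were added after their values were seen. Fewer than 80% of the reads were matched for the members ORC3, POLA2, POLE2, RFC2, RFC5, RPA1 and CHAF1B and, among other genes given values here, for WDHD1, BRCA1, CDC25A and FLI1, so that their values cover the matched transcripts alone. MCM2, GINS2, DUT, E2F1, CDKN1A and PRC1 CPM were also given, chosen after their values were seen. 1 gene of the further lists was left out of their counts and is not reported here.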

Additional observations from a re-analysis of the deposited data

Results flagged for a closer look

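In 10 of 92 groups of 4 cultures, 1 culture stood further from the other 3 than Dixon's criterion allows. About 4.6 would arise by chance if the cultures of a group were alike. They came from 4 origins, however, and many genes differed between origins, so that 4.6 is not a fair yardstick here. The values are CPM, and no cause was examined.

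Clone 6 was the high culture in 5 of them. ORC2 stood at 66.9 in the clone 6 control against 53.7 to 54.6 in the other controls, and at 78.4 with doxycycline against 59.7 to 62.4. RRM1 was at 220 in the clone 6 control against 200.1 to 202. With doxycycline, clone 6 had 359.6 for TYMS against 275.7 to 284.9, and 258.5 for RBBP7, a histone chaperone, against 208.7 to 215.3.

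MCM4 was at 415.3 in the polyclonal control against 455.8 to 462, and at 412 in clone 3 with doxycycline against 370.7 to 376.5. CDKN1A was highest in clone 3 with doxycycline, at 68.3 against 48.1 to 48.4. In clone 5, PLK1 stood at 177.5 in the control against 100.1 to 107.4, and WDHD1, a protein that links the helicase to polymerase alpha, at 31.9 with doxycycline against 40.3 to 41.2.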

How the results depend on the processing

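The count of genes changed with doxycycline, 1221, became 1 with no replicate block, 1920 with DESeq2 and the replicate block, and 231 with DESeq2 and no replicate block. The count of members changed, 10, became 0, 20 and 2 in the same order, and 16 when at least 10 counts were required in every library. DESeq2 with the block and that filter each kept the same 10 members. The members that DESeq2 with the block added were MCM2, MCM10, GINS2, GINS3, POLE, POLE2, RFC2, TYMS, TK1 and CHAF1A. Leaving out both cultures of an origin gave 175 to 699 genes and 0 to 5 members (0 without clone 5 or clone 6). The other normalization, the filter of 1 count in any library and the length offset gave 11 or 12 members. The median log2 fold change of the members stayed between -0.166 and -0.086 in these alternatives. None of the 110 values computed for the 10 called members in the alternatives changed sign, which was all but fixed because each was lower in every pair. Of the 110, 51 lost the call, 33 of them with an origin left out and 18 without the block. Among the other 10 named members a call was gained 2 times, by TYMS. The cause of the losses was not tested. With an origin left out, the smaller number of pairs and the origin dropped cannot be told apart. How depth limits the fold changes was not tested, and 4 pairs limit their precision.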
